A study of Mus musculus with 11 samples.

Results

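A set of 10 genes that define microglia, the resident macrophages of the brain, were followed in a map of lamin B1 contacts in mouse oligodendrocyte lineage cells. The 10 members were P2ry12, Spi1, Ptprc, Cx3cr1, Csf1r, Aif1, Tmem119, Trem2, Itgam and C1qa. They were taken by symbol from the deposited table of 21534 gene regions, and all 10 had 1 region each. No filter on low values was applied. The cells were oligodendrocyte precursor cells (OPC) from the cerebral cortex of wild-type C57BL/6 mouse pups, taken on postnatal day 7 and kept as primary cultures. Every culture was transduced for 1 day by lentivirus, either with Dam-LMNB1 or with Dam alone, and then grown for 72 h. In the OL condition (T3 in the labels) the medium was a differentiation medium, and in the OPC condition (PF) a proliferation medium. There were 3 Dam-LMNB1 and 3 Dam libraries in OL, against 3 Dam-LMNB1 and 2 Dam libraries in OPC. Nothing in the labels ties a library to its own culture or animal, so the p-values measure only the spread between libraries, which may be technical. Promoters driving the Dam constructs are not given in the sources used here.

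DamID marks contacts with DNA adenine methylation. Dam, a bacterial methyltransferase, is fused to lamin B1 and methylates the adenine of GATC wherever the fusion protein reaches the chromatin, mostly at the nuclear lamina. Untethered Dam reports what any free enzyme can reach. Chromatin at the lamina is usually poor in active genes, and genes of other lineages are often found there. Microglia descend from yolk sac macrophages and not from the neural lineage that yields oligodendrocytes, so the members are identity genes of another lineage. RNA was not analysed here, so neither the expression of the members nor the presence of microglia in the cultures could be read from these data, and a score averages over all transduced cells of a culture.

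A deposited score sets 1 Dam-LMNB1 library against a pool of the Dam libraries of that condition. It has no stated log base, so differences are in score units. A score above 0 is read as more Dam-LMNB1 than Dam methylation. The median score over all regions was −1.38 to −1.50 in the OL libraries and −1.53 to −1.55 in the OPC libraries, and 26.8% to 28.3% against 26.8% to 27.3% of the regions lay above 0. OL library 18 stood apart with the narrowest spread over regions (SD 1.46, against 1.54 in OL library 19, 1.53 in OL library 20 and 1.57 to 1.59 in OPC). Every region was called with limma on the 6 libraries at an adjusted p under 0.05. Within a condition all 3 scores rest on the same Dam pool, and differences among Dam libraries are therefore not in the p-values. The read depth is unknown.

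In both conditions most of the microglia genes lay below 0, and a minority lay at or above it. In OL, 3 of the 10 were above 0 (Ptprc, P2ry12 and Trem2), where 25.9% of all regions were, and 7 were below 0, where 70.9% of all regions were. In OPC, 2 were above 0 (Ptprc and P2ry12, background 25.5%), 7 were below (background 71.4%), and Trem2 was not called. These shares were near those of the whole table. The median score of the members was −1.25 in OL and −1.15 in OPC, beside −1.47 and −1.54 over all regions. Members differed from each other far more than libraries did. The SD over the 10 means was 1.14 in OL and 1.09 in OPC, while the median SD of a member over its 3 libraries was 0.10 and 0.06.

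**Figure D1:**
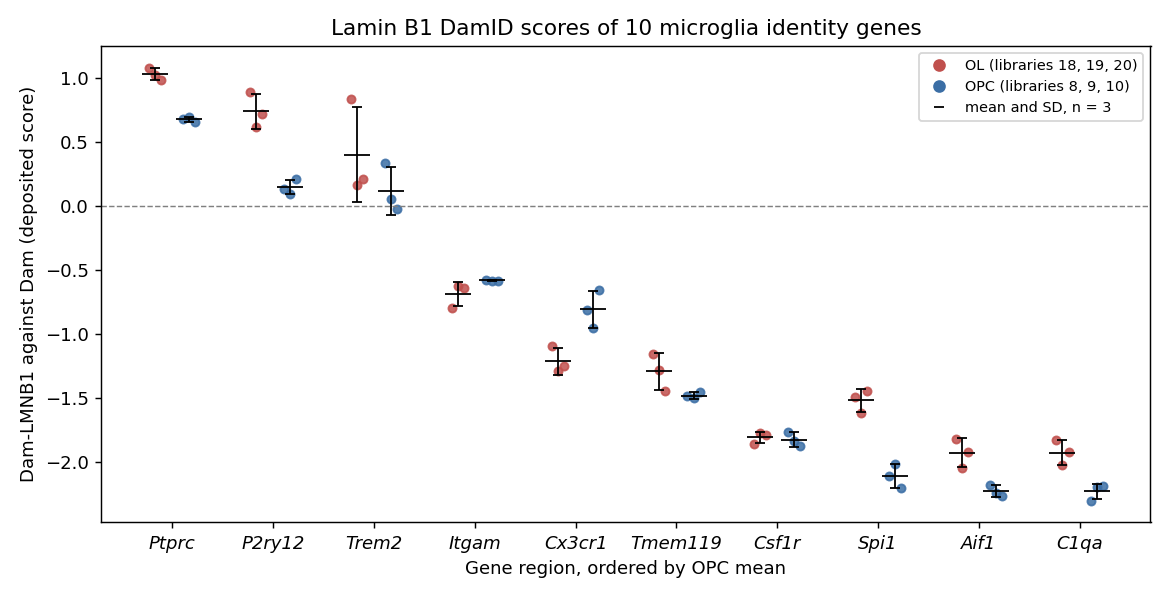
Deposited lamin B1 score (vertical axis, score units) of each member in the 3 OL libraries and the 3 OPC libraries, with bars for the mean and SD (n = 3). Ptprc is highest at 1.03 in OL and 0.68 in OPC, and Aif1 and C1qa are lowest at −1.93 each in OL and −2.23 each in OPC.

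The order of the levels was similar in the conditions. In OL it ran Ptprc, P2ry12, Trem2, Itgam, Cx3cr1, Tmem119, Spi1, Csf1r, C1qa and Aif1. In OPC it ran Ptprc, P2ry12, Trem2, Itgam, Cx3cr1, Tmem119, Csf1r, Spi1, Aif1 and C1qa. Neighbours in this order whose libraries overlapped were P2ry12 and Trem2 and the pair Aif1 and C1qa in both conditions. In OL these were also Cx3cr1 with Tmem119 and Csf1r with C1qa, and in OPC Spi1 with Aif1. The widest gap between neighbours in the order lay between Trem2 and Itgam, at 1.09 in OL and 0.70 in OPC.

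Among the surface receptors, P2ry12 encodes the purinergic receptor by which microglial processes sense ADP and ATP. Its region (mm10, chr3:59214270-59272831, minus strand) is 58.6 kb wide. P2ry12 scored 0.89, 0.61 and 0.72 in OL libraries 18, 19 and 20, against 0.14, 0.10 and 0.21 in OPC libraries 8, 9 and 10. All 3 OL libraries lay above all 3 OPC libraries, and all 6 were above 0. The difference was 0.59 (SE 0.08, limma adjusted p = 1.39e-03), larger than that of 97.5% of all regions. In OPC the level was close to 0 at 0.15 ± 0.06 (SD, n = 3, limma adjusted p against 0 = 0.0336). That OPC call was lost without any 1 of the 3 OPC libraries, with limma adjusted p = 0.0822 without library 8, 0.0552 without library 9 and 0.166 without library 10. It was also lost with ordinary least squares per region in place of limma's shared variance (adjusted p = 0.0764).

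Trem2 encodes a lipid-sensing receptor that signals through the adaptor Tyrobp. In its region (chr17:48336400-48354276, plus strand) the scores were 0.83, 0.16 and 0.21 in OL libraries 18, 19 and 20, against 0.33, 0.05 and −0.02 in OPC libraries 8, 9 and 10. OL library 18 stood far above the other OL libraries, and the groups overlapped. The difference of 0.28 had a 95% confidence interval of −0.10 to 0.66 and was not called (limma adjusted p = 0.219). Without OL library 18 it was 0.07, and the OL level was 0.19 with an adjusted p against 0 of 0.0596 (limma), so the OL call above 0 was not made. That call was also lost with ordinary least squares per region in place of limma's shared variance (adjusted p = 0.0809). In OPC the level of 0.12 ± 0.19 (SD, n = 3) had an adjusted p of 0.344 (limma).

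Cx3cr1, the receptor for the neuronal chemokine fractalkine, was the 1 member called lower in OL. Its scores (chr9:120046682-120078296, minus strand) were −1.10, −1.29 and −1.26 in OL libraries 18, 19 and 20, against −0.81, −0.95 and −0.66 in OPC libraries 8, 9 and 10. Every OL library lay below every OPC library. It fell by 0.41 (SE 0.10, limma adjusted p = 0.0115), and 5.33% of all regions had a lower difference. The region was already below 0 in OPC and lay further below it in OL.

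Csf1r encodes the receptor for CSF1 and IL-34, on which microglia depend for survival. Its region (chr18:61095571-61133139, plus strand) scored −1.86, −1.77 and −1.79 in OL libraries 18, 19 and 20, against −1.77, −1.84 and −1.88 in OPC libraries 8, 9 and 10. The groups overlapped throughout. The difference was 0.02 with a 95% confidence interval of −0.16 to 0.20 (limma adjusted p = 0.876), and the sign turned under every other scaling of the libraries. Its ligands lay deeper below 0. Csf1 averaged −2.41 ± 0.15 in OL and −2.52 ± 0.17 in OPC, and Il34 −2.19 ± 0.12 in OL and −2.30 ± 0.11 in OPC (SD, n = 3 each), with neither difference called.

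Ptprc encodes CD45, the receptor phosphatase of all white blood cells, and had the highest score of the members in every library. Its region (chr1:138060858-138185126, minus strand) is the widest at 124 kb. Scores were 1.08, 1.02 and 0.99 in OL libraries 18, 19 and 20, against 0.68, 0.69 and 0.66 in OPC libraries 8, 9 and 10. The libraries of a condition lay within a narrow band, and the bands did not overlap. The difference was 0.35 (SE 0.06, limma adjusted p = 4.17e-03). With 82.9% of all regions scoring lower in OL and 79.9% in OPC, Ptprc was inside the upper group of regions but not at its top.

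Itgam encodes CD11b, the integrin alpha chain of complement receptor 3. Its region (chr7:128052639-128120491, plus strand) scored −0.80, −0.62 and −0.64 in OL libraries 18, 19 and 20, against −0.58 in each of the OPC libraries. All OL libraries lay below the OPC libraries, yet the difference of −0.11 had a 95% confidence interval of −0.27 to 0.06 and was not called (limma adjusted p = 0.289). Without OL library 18 it was −0.05.

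Tmem119 encodes a membrane protein used to tell microglia from blood-derived macrophages. Scores of its region (chr5:113791728-113810352, minus strand) were −1.16, −1.28 and −1.44 in OL libraries 18, 19 and 20, against −1.49, −1.50 and −1.46 in OPC libraries 8, 9 and 10. The groups did not overlap, with OL library 20 next to the OPC libraries. The difference of 0.19 was not called (95% confidence interval −0.01 to 0.39, limma adjusted p = 0.131), and it was 0.12 without OL library 18.

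Spi1, the transcription factor PU.1 that is needed for the myeloid lineage, lay deep below 0 in OPC and less deep in OL. Scores of its region (chr2:91086677-91117759, plus strand) were −1.49, −1.62 and −1.45 in OL libraries 18, 19 and 20, against −2.11, −2.02 and −2.21 in OPC libraries 8, 9 and 10. The groups lay well apart. The difference of 0.59 (SE 0.09, limma adjusted p = 1.84e-03) nearly matched that of P2ry12, though at a level on the other side of 0. In OL 48.2% of all regions scored lower than Spi1, and in OPC 27.9% did.

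Aif1 encodes IBA1, a calcium-binding protein of actin-rich membrane ruffles. Its region (chr17:35168991-35186001, minus strand) scored −1.82, −2.05 and −1.92 in OL libraries 18, 19 and 20, against −2.18, −2.25 and −2.27 in OPC libraries 8, 9 and 10. C1qa encodes a chain of C1q, the first component of the classical complement pathway. Its region (chr4:136893915-136908844, minus strand) scored −1.83, −2.02 and −1.93 in OL libraries 18, 19 and 20, against −2.30, −2.20 and −2.19 in OPC libraries 8, 9 and 10. For both genes the OL libraries lay above the OPC libraries, and both stayed far below 0 in all 6. The difference was 0.30 for each (SE 0.09 each, limma adjusted p = 0.028 for Aif1 and 0.025 for C1qa). Both calls were lost when mean and SD were made equal across libraries, with adjusted p = 0.0846 for Aif1 and 0.0928 for C1qa (limma). Leaving out OL library 18 ended them too, with adjusted p = 0.0598 for Aif1 and 0.0529 for C1qa (limma). So did leaving out OL library 20 (0.0720 and 0.0639), OPC library 9 (0.0791 and 0.0571) or OPC library 10 (0.0808 and 0.0517), and C1qa was also lost without OPC library 8 (0.0792).

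Set against the whole table, 5 of the 10 members were called higher in OL (P2ry12, Spi1, Ptprc, Aif1 and C1qa), where 23.0% of all regions were, and 1 was called lower (Cx3cr1), where 10.9% were. OL and OPC libraries did not overlap for 8 members, and for 48.9% of all regions. The median difference was 0.29 over the members and 0.10 over all regions, so the table as a whole also lay higher in OL. Relative to that median, P2ry12 and Spi1 stood 0.50 higher each, Ptprc 0.26, C1qa and Aif1 0.21 each, and Cx3cr1 −0.50. Over all regions, 4963 were called higher and 2345 lower. With mean and SD made equal across libraries the counts were 3330 higher and 3261 lower, and the members called higher were P2ry12, Ptprc and Spi1. The same 3 members were called higher without OL library 18, OL library 20, OPC library 9 or OPC library 10 (14.6% to 18.7% of all regions). Without OPC library 8 the number was 4 (17.7% of all regions). In the authors' deposited table no member had an adjusted p under 0.05, and the lowest values were 0.0508 for Spi1, 0.0570 for Ptprc and 0.0843 for P2ry12.

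**Figure D2:**
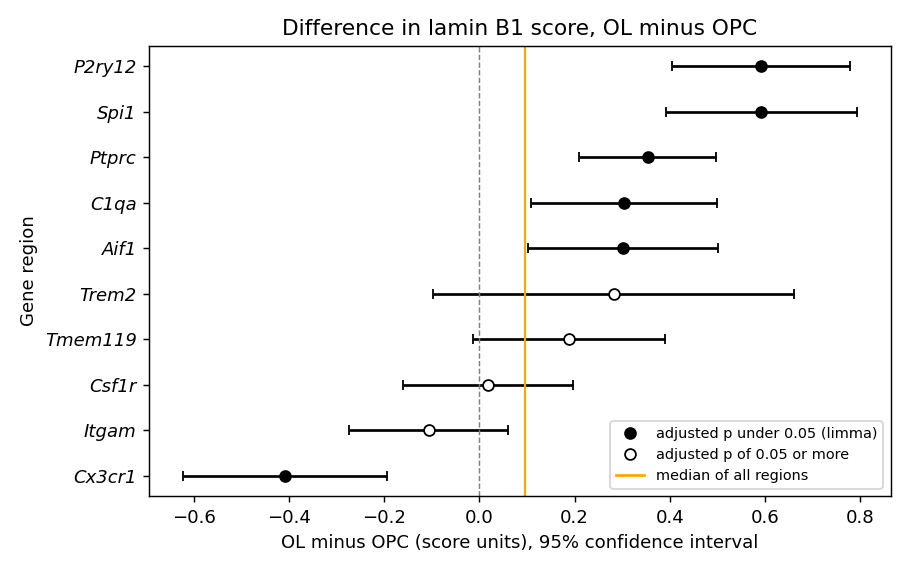
Difference in score between OL and OPC (horizontal axis, score units) for each member with its limma 95% confidence interval; filled points have an adjusted p under 0.05 and the orange line is the median of all regions at 0.10. P2ry12 and Spi1 lie highest at 0.59 each, and Cx3cr1 lies lowest at −0.41.

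The regions hold a gene with its flanks, so a score is not that of a promoter, exon or intron. Around the RefSeq gene (GRCm38.p6) 9 of the member regions had an upstream flank of 9.37 to 10.0 kb, and all 10 had a downstream flank of 2.0 kb. For Spi1 the upstream flank was −4.3 kb, since the RefSeq gene starts further upstream than the deposited region. Dam can methylate only at GATC, so the sites in a sequence set where a score can come from. RefSeq promoter sequences (250 bases before the start and 50 after, GRCm38.p6) were used for 6 members with 7 starts, all inside the deposited regions. Promoters of Spi1, Csf1r, Tmem119 and C1qa were not included, which does not show that these members lack one. The motif counts therefore do not cover them. Among the 7 starts used, 4 held at least 1 GATC, and 48.0% of 32851 mouse promoters of the same length did. The PU box GAGGAA, the core bound by PU.1, was searched on both strands (as GAGGAA or TTCCTC, which cannot overlap GATC). It was in 4 of the 7, and in 28.3% of all these promoters. The windows of the 2 Ptprc starts overlap each other, so the 7 are not all separate sequences. A match is a description of letters and was not tested for binding or methylation. Promoters of the 3 members with the highest scores and of Cx3cr1, the member called lower, are printed 5′ to 3′ on the strand of the gene, with capitals for GATC and for the PU box on either strand. They are P2ry12 (chr3:59262936-59263235, minus), 1 of the 2 starts of Ptprc (chr1:138175256-138175555, minus), Trem2 (chr17:48346151-48346450, plus) and Cx3cr1 (chr9:120068247-120068546, minus).
P2ry12: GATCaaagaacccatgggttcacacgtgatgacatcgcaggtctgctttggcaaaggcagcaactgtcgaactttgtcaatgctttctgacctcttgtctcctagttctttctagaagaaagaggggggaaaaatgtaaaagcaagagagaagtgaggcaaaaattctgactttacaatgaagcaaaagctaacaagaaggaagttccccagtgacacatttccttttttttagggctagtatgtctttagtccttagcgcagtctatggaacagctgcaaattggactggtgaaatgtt
Ptprc: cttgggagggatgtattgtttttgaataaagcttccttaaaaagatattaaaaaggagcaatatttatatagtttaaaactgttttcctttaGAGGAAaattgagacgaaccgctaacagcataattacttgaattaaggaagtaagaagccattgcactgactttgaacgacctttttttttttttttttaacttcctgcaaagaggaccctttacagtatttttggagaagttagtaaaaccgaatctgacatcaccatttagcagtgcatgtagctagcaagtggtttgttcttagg
Trem2: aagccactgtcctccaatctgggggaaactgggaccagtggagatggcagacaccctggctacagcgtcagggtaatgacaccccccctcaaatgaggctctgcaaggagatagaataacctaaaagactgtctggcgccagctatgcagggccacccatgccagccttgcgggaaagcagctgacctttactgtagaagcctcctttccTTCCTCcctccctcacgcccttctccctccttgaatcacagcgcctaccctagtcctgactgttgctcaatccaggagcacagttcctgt
Cx3cr1: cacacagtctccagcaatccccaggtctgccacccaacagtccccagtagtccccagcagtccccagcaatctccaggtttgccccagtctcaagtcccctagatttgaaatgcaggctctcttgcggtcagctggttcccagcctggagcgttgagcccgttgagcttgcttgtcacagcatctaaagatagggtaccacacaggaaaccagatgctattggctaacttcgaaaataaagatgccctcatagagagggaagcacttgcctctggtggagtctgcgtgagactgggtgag
In these windows P2ry12 held 1 GATC, at position 1 counted from the 5′ end, and no PU box. The printed start of Ptprc held 1 PU box as GAGGAA at position 93 and no GATC. Its other start, not printed, held 1 GATC at position 279 and no PU box. Trem2 held 1 PU box as TTCCTC at position 211. The Cx3cr1 window held neither motif.

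The surroundings of the members showed which of them shared their level with their neighbours. Calls of neighbouring regions are given for the limma fit of the deposited scores only. They were not followed under other scalings or with a library left out. Ptprc, P2ry12 and Trem2 each lay in a run of consecutive regions with a mean above 0, but only P2ry12 had mostly such neighbours. Within 500 kb, 7 of 8 regions near P2ry12 were called above 0 in OL and 6 in OPC. Near Ptprc 1 of 3 was in each condition, and near Trem2 4 of 11. Over all regions 25.9% were above 0 in OL and 25.5% in OPC. Ptprc was 1.12 above the median of its neighbours in OL and 0.92 above it in OPC. For Trem2 these values were 1.55 and 1.24. Within 500 kb of Ptprc there were only 3 other regions, against a median of 16 for all regions, and consecutive regions above 0 were Ptprc and Atp6v1g3, a subunit gene of the proton pump. Atp6v1g3 scored 1.42, 1.37 and 1.36 in OL libraries 18, 19 and 20, against 0.64, 0.80 and 0.72 in OPC libraries 8, 9 and 10. Its OL libraries lay above its OPC libraries, and it was called higher (difference 0.66, limma adjusted p = 4.46e-04). On the other side of Ptprc the nearest region, that of the microRNA gene Mir181a-1, lay 92.1 kb away and averaged −1.69 ± 0.15 in OL and −2.13 ± 0.03 in OPC (SD, n = 3 each).

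P2ry12 lay in a run of 9 consecutive regions with a mean above 0 in OL and 12 in OPC, which spans chr3:58996873-60089566 in OL and chr3:58842027-60089566 in OPC. Its region overlaps those of P2ry13, a related ADP receptor of microglia, and of Med12l, a long Mediator subunit gene. P2ry13 averaged 0.53 ± 0.17 in OL and 0.13 ± 0.11 in OPC (difference 0.41, limma adjusted p = 0.0127), and Med12l 0.31 ± 0.10 in OL and 0.09 ± 0.03 in OPC (SD, n = 3 each, difference 0.22, adjusted p = 0.0420). P2ry14, the receptor for UDP-glucose, was −0.00 ± 0.24 in OL and 0.19 ± 0.02 in OPC and was not called. The nearest region on the other side, Igsf10, averaged 0.96 ± 0.07 in OL and 0.52 ± 0.04 in OPC (difference 0.45, adjusted p = 1.95e-03, limma). Of the 8 regions within 500 kb of P2ry12, 4 were called higher in OL and 0 lower by limma, and 0 were lower at an unadjusted p under 0.05. Because overlapping regions share reads, these calls are not independent of that of P2ry12. The shares over all regions were 23.0% called higher and 10.9% called lower.

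Trem2 sat at an edge. The run of regions with a mean above 0 held 5 (chr17:48222738-48354276) in both conditions, from Trem1 to Trem2. Trem1, the inflammatory receptor of neutrophils and monocytes, averaged 1.24 ± 0.08 in OL and 1.02 ± 0.19 in OPC. Treml2 averaged 0.84 ± 0.19 in OL and 0.71 ± 0.07 in OPC, and Treml4 0.70 ± 0.31 in OL and 0.77 ± 0.18 in OPC (SD, n = 3 each). None of these 3 was called different. The region of Treml1, a receptor of platelets, overlaps that of Trem2 and averaged −0.01 ± 0.11 in OL and −0.25 ± 0.06 in OPC (difference 0.24, limma adjusted p = 0.0409). The next region, Nfya, which encodes a subunit of a CCAAT-binding factor, lay 30.6 kb beyond Trem2 at −1.21 ± 0.06 in OL and −1.55 ± 0.08 in OPC.

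The other 7 members lay among regions below 0. Within 500 kb, all 22 regions around Spi1, 21 around Csf1r, 71 around Aif1, 18 around Tmem119, 35 around Itgam and 11 around C1qa were called below 0 in both conditions. Around Cx3cr1 14 of 15 were. Over all regions 70.9% were below 0 in OL and 71.4% in OPC, and overlapping regions share reads. Itgam stood furthest above its neighbours among the 7. It was 1.23 higher than the median of its neighbours in OL and 1.55 higher in OPC. The overlapping region of the related integrin gene Itgax (CD11c) was at −0.57 ± 0.10 in OL and −0.44 ± 0.05 in OPC, and Itgad at −0.72 ± 0.11 in OL and −0.72 ± 0.04 in OPC. Itgal, which lies apart from these 3 genes, was at −1.81 ± 0.18 in OL and −1.99 ± 0.09 in OPC (SD, n = 3 each). None of the 3 related genes was called different between the conditions. The nearest region before Itgam, that of the muscle membrane repair gene Trim72, was called lower (−1.70 ± 0.09 in OL and −1.43 ± 0.04 in OPC, SD, n = 3 each, limma adjusted p = 0.0324). Of the 35 regions within 500 kb of Itgam, 12 were called higher in OL and 2 lower, beside 23.0% and 10.9% of all regions.

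Cx3cr1 was 0.50 above the median of its neighbours in OL and 0.69 above it in OPC. The nearest region after it, 3.84 kb away, was that of the chemokine receptor gene Ccr8. Ccr8 scored −1.64, −1.65 and −1.86 in OL libraries 18, 19 and 20, against −0.93, −0.37 and −1.14 in OPC libraries 8, 9 and 10. The OL libraries all lay below the OPC libraries, which were spread widely. It fell by 0.91 (limma adjusted p = 4.87e-03). On the other side Xirp1 averaged −1.83 ± 0.20 in OL and −1.74 ± 0.07 in OPC (SD, n = 3 each) and was not called. Of the 15 regions within 500 kb of Cx3cr1, 4 were called lower in OL and 0 higher (limma), with 1 higher at an unadjusted p under 0.05. Among the 4 was Mobp, a myelin gene of oligodendrocytes, at −1.41 in OL and −1.08 in OPC (limma adjusted p = 0.0196). Over all regions 10.9% were called lower and 23.0% higher.

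Spi1 was 0.61 above the median of its neighbours in OL and 0.23 above it in OPC. Tmem119 was 0.56 above the median of its own neighbours in OL and 0.49 above it in OPC. Mybpc3, a heart muscle gene whose region overlaps that of Spi1, was called higher in OL (−1.62 ± 0.06, against −1.98 ± 0.05 in OPC, SD, n = 3 each, limma adjusted p = 9.37e-03). So was the zinc transporter gene Slc39a13 on the other side (difference 0.34, adjusted p = 0.0305, limma). Of the 22 regions near Spi1, 9 were called higher and 0 lower (limma), beside 23.0% and 10.9% of all regions. Aif1 lies in the gene-dense class III part of the major histocompatibility complex. Its surroundings within 500 kb reach beyond that part, and 29 of these 71 regions were called higher and 0 lower (limma). In both surroundings 0 regions were lower at an unadjusted p under 0.05. Near Tmem119 the splicing factor gene Sart3 was called higher (−1.90 ± 0.06 in OL and −2.43 ± 0.07 in OPC), and so was Selplg, which encodes the P-selectin ligand (−2.03 ± 0.11 in OL and −2.36 ± 0.03 in OPC). Of the other surroundings, 8 of 18 regions near Tmem119, 2 of 3 near Ptprc and 3 of 21 near Csf1r were called higher. So were 3 of 11 near Trem2 and 3 of 11 near C1qa, where the share over all regions was 23.0%. In these 5 surroundings 0 regions were lower by limma or at an unadjusted p under 0.05. Whether the counts around the members differ from the shares over all regions was not tested. The receptor gene Pdgfrb, before Csf1r, was at −1.36 ± 0.07 in OL and −1.50 ± 0.07 in OPC and was not called. The C1q genes form a cluster with overlapping regions, in which C1qb was −1.43 ± 0.03 in OL and −1.77 ± 0.19 in OPC (difference 0.34, adjusted p = 0.0313, limma). C1qc was −1.77 ± 0.03 in OL and −1.89 ± 0.06 in OPC and was not called (SD, n = 3 each).

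**Figure D3:**
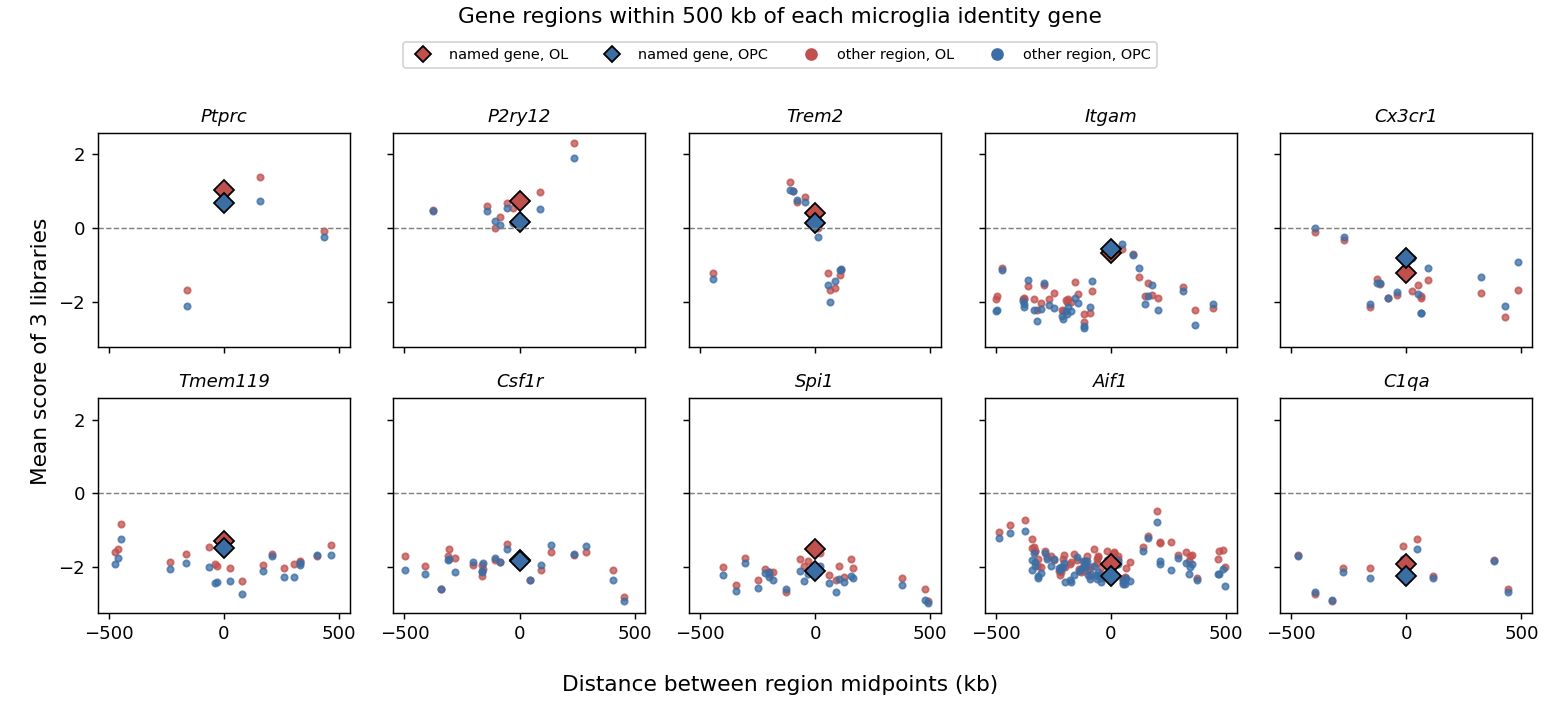
Mean score of 3 libraries (vertical axis, score units) of each member and of every other gene region whose midpoint lies within 500 kb (horizontal axis, distance in kb), for OL and OPC. Ptprc, P2ry12 and Trem2 have neighbours above 0, and around Spi1, Csf1r, Aif1, Tmem119, Itgam and C1qa the other regions lie below 0.

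Other genes had score patterns like those of the members. Over the 6 libraries, the protein-coding regions on other chromosomes nearest to Ptprc were Grb14 (root mean square distance 0.04), Pkia (0.05) and Cd109 (0.05). Those nearest to P2ry12, which had the largest difference, were Asnsd1 (0.05), Pde3b (0.07) and Neb (0.09). These distances are descriptions over 6 libraries that share their Dam denominators.

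A further 7 lists of other immune genes, 107 genes in all (Csf1 stands in 2 lists), gave a wider view of the myeloid program. Of these, 29 were above and 73 below 0 in OL, where 25.9% and 70.9% of all regions were. In OPC 28 were above and 71 below, where 25.5% and 71.4% of all regions were. In OL relative to OPC, 23 were called higher and 14 lower, near the background of 23.0% and 10.9%, with a median difference of 0.08. With mean and SD made equal across libraries, 12 were called higher and 19 lower, beside 15.5% and 15.1% of all regions. The balance of directions thus depended on the scaling. Without OL library 18 the counts were 17 higher and 19 lower (18.7% and 11.9% of all regions). They were 18 and 8 without OL library 19 (19.2% and 8.30%), and 13 and 8 without OL library 20 (18.0% and 8.05%). Leaving out OPC library 8 gave 16 and 8 (17.7% and 8.20%). The counts were 13 and 11 without OPC library 9 (14.6% and 7.77%), and 13 and 9 without OPC library 10 (16.4% and 8.15%).

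The counts per list are for the deposited scores without rescaling, and other scalings are not given for each list. Over all regions, 23.0% were called higher in OL and 10.9% lower. Above 0 lay 25.9% of all regions in OL and 25.5% in OPC, with 70.9% and 71.4% below. Of 22 other homeostatic microglia genes, 4 were above 0 in OL and 3 in OPC, and 17 were below 0 in each condition. Cd53, a tetraspanin of white blood cells, was highest at 2.28 ± 0.13 in OL and 2.30 ± 0.10 in OPC, and Olfml3 lowest at −2.43 ± 0.51 in OL and −2.67 ± 0.11 in OPC (SD, n = 3 each). Called higher were 5, among them the adenosine receptor Adora3 (difference 0.62), Golm1 (0.48) and the lysosomal protein gene Laptm5 (0.48), and 3 were called lower. Gpr34, a lysophosphatidylserine receptor, was at −0.71 ± 0.32 in OL and −1.07 ± 0.05 in OPC and was not called. Of 16 myeloid transcription factors, 2 were above 0 and 14 below in each condition. Those above were Ikzf1, a lymphoid and myeloid zinc finger factor (1.81 ± 0.08 in OL and 1.71 ± 0.06 in OPC), and Mef2c, a MADS box factor (1.23 in OL and 1.23 in OPC). Called higher were 3, with Bhlhe41 (0.48) and Egr2 (0.45) first, and 2 were called lower, with Klf4 (−0.38) first.

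Of all regions, 70.9% lay below 0 in OL and 71.4% in OPC, with 25.9% and 25.5% above. All 10 genes of CSF1 receptor ligands and TREM2 signalling lay below 0 in both conditions. Of these, 5 were called higher in OL (23.0% of all regions) and 1 lower (10.9% of all regions). Those higher included the phospholipase gene Plcg2 (difference 0.41), Hcst (0.41) and the Fc receptor chain gene Fcer1g (0.38). Complement and phagocytic receptors had 5 of 18 above 0 and 13 below in each condition, with the scavenger receptor Msr1 highest (2.39 ± 0.03 in OL and 2.05 ± 0.04 in OPC) and the lysosomal marker Cd68 lowest. There 3 were called higher, namely Itgb2, the beta chain that pairs with CD11b (0.45), C1qb and Msr1 (0.34 each), and 1 was called lower. Of 16 disease-associated microglia genes, 4 were above 0 and 8 below in OL, against 5 above and 7 below in OPC. Called higher were 0 by limma (23.0% of all regions), also at an unadjusted p under 0.05, and lower 3 (10.9% of all regions). Those lower were the matrix protein gene Spp1 (−0.62), the growth factor gene Igf1 (−0.46) and the beta-glucan receptor gene Clec7a (−0.32).

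Border macrophage and monocyte genes had the highest median of the lists, at 0.83 in OL and 0.69 in OPC. Of 14, 10 were above 0 in OL (25.9% of all regions) and 9 in OPC (25.5% of all regions). The mannose receptor gene Mrc1 averaged 0.79 ± 0.04 in OL and 1.59 ± 0.03 in OPC (SD, n = 3 each) and fell by 0.80 (limma adjusted p = 1.56e-04). Ccr2, the chemokine receptor of monocytes, averaged 2.09 ± 0.09 in OL and 2.66 ± 0.07 in OPC and fell by 0.57. Ms4a6c was called higher (difference 0.47), and in all 5 were called higher and 2 lower, beside 23.0% and 10.9% of all regions. Of 12 lymphocyte genes, 4 were above 0 in each condition, with the interleukin 7 receptor gene Il7r highest (2.44 ± 0.06 in OL and 2.35 ± 0.04 in OPC). There 2 were called higher and 2 lower.

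Lists of other brain cell types are given for scale. Over all regions 25.9% were above 0 in OL and 25.5% in OPC, with 70.9% and 71.4% below. Between the conditions 23.0% were called higher in OL and 10.9% lower. All 14 astrocyte genes were below 0 in OL, against 11 below and 2 above in OPC, with 2 called higher and 5 lower. The gap junction gene Gjb6 was called lower (difference −1.03), and so was the water channel gene Aqp4 (−0.68), while the calcium-binding protein gene S100b was called higher (0.74). Endothelial and mural genes had 7 of 14 above 0 in each condition, with 1 called higher and 4 lower. All 15 OPC and oligodendrocyte genes were below 0 in both conditions, with 6 called higher and 3 lower. The lineage factor gene Sox10 was called higher (difference 0.67). Whether the microglia genes differed from these lists was not tested.

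**Figure D4:**
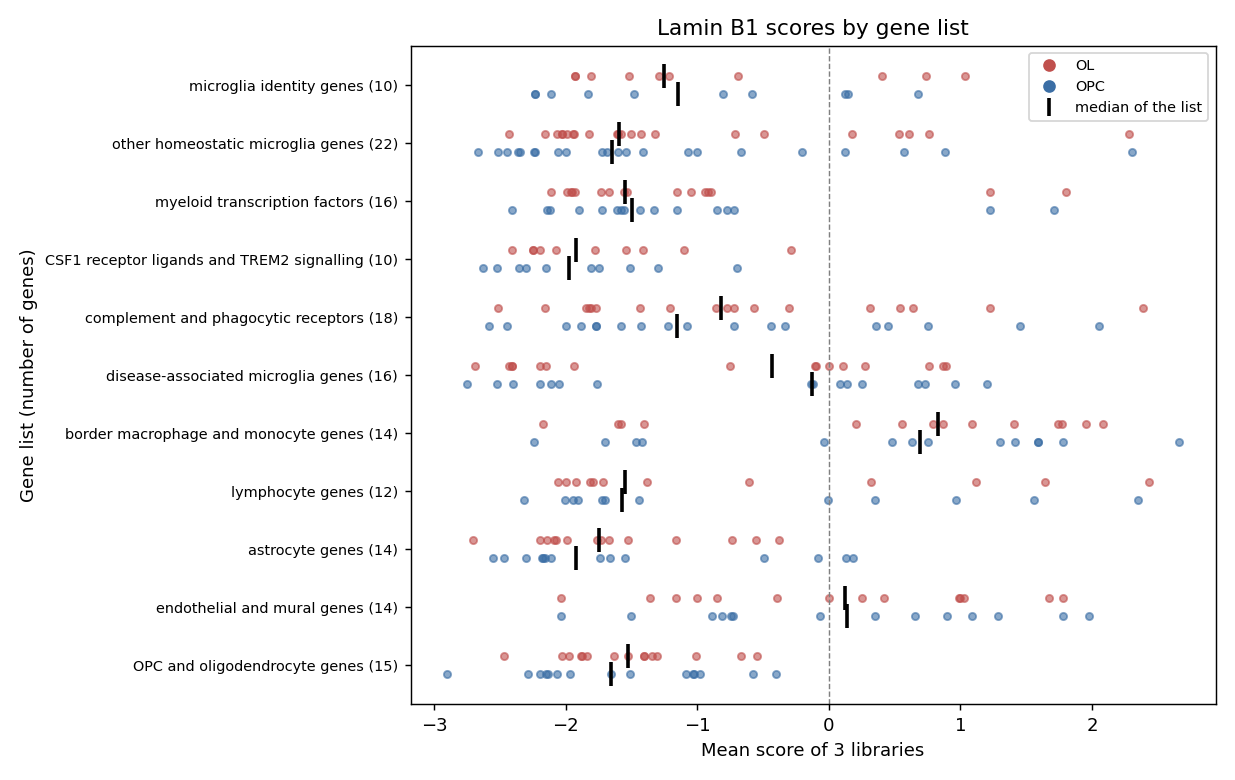
Mean score of 3 libraries (horizontal axis, score units) of each gene in 11 lists, for OL and OPC, with a black mark at the median of the list. The microglia identity genes have medians of −1.25 in OL and −1.15 in OPC, and the border macrophage and monocyte genes have the highest, 0.83 in OL and 0.69 in OPC.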

How the data were processed

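Libraries held genomic DNA after methylation-specific PCR, per the labels' protocols. The submitters' processing notes name mm10, BWA 0.7.17 and cutadapt 1.9.1, and the sources used here do not state how scores were made from reads. The authors deposited 1 score per region and Dam-LMNB1 library, taken against pooled Dam libraries per the file headers, and p-values of their own for OL against OPC. Scores of the Dam libraries alone are not analysed here. limma 3.58.1 (R 4.3.3) was fitted to the deposited scores of all 21534 regions and 6 libraries, with a mean for either condition, a trended prior variance and 9.42 degrees of freedom in total. OL minus OPC and each condition against 0 were tested two-sided, with Benjamini-Hochberg adjustment over all regions at 0.05; the fit was tested on simulated data. Protein-coding status and promoters came from RefSeq tables of GRCm38.p6. The members and the gene lists were chosen with earlier results of these data known. Named genes were all members, their overlapping and nearest regions, listed paralogues and ligands, and in each list the highest, the lowest and up to 3 of the largest called differences; Mef2c and Mobp were picked after their values were seen. Neighbours were regions with midpoints within 500 kb. Of all regions, 64.0% overlap another and so share reads with it. Alternatives were 3 other scalings, 2 other variance models, protein-coding genes only, and leaving out each library.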

Additional observations from a re-analysis of the deposited data

How the results depend on the processing

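Of the 10 members, P2ry12, Spi1 and Ptprc were called higher in OL in the limma fit and under all 12 alternatives, with differences of 0.51 to 0.66, 0.47 to 0.64 and 0.28 to 0.38. Members called higher numbered 5 as reported and 3 with mean and SD equal across libraries, with quantile normalization and with ordinary least squares per region; leaving out 1 library gave 3 to 5. Cx3cr1 was called lower except with ordinary least squares (adjusted p = 0.068), which left 0 members lower. That alternative has fewer degrees of freedom, and it called 2703 regions higher and 1336 lower in all. Leaving out 1 library gave 3136 (without OPC library 9) to 4132 regions higher and 1673 to 2552 lower. The Csf1r difference turned negative with equal mean and SD (−0.10), quantile normalization (−0.12), median centring (−0.060) and without OPC library 10, with −0.0084 to 0.049 over the libraries left out. Members above 0 in OPC numbered 1 with ordinary least squares and 1 to 2 without 1 library, and in OL 2 with ordinary least squares and 2 to 3 without 1 library. Over the 40 medians of neighbours in windows of 250 and 1000 kb, 23 moved by less than 1 SD and 17 by more, with no change of sign. Counts over the 107 immune genes under these settings were added after the data were seen. No paired analysis was possible because OL and OPC libraries share no replicate numbers.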
